A study of Homo sapiens with 2 samples.

Results

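The death receptors FAS, TNFRSF10A, TNFRSF10B and TNFRSF1A, the caspase-8 regulator CFLAR and the initiator caspases CASP8, CASP10 and CASP9 were examined as 8 genes chosen by symbol, all of which were found among the 18267 genes with counts. Bulk RNA sequencing had been performed on DTIC-resistant (DR) cells and on the wild-type control (WT), with 1 library each. The labels of both libraries give the human melanoma line A375 and 105 days of DTIC (spelled DITC there) in DMEM with serum for both, including the one labelled WT. In the methods, DR cells are those that outlived rising concentrations of DTIC, a DNA-alkylating drug, and WT is the control. Each column of counts was matched to its sample by the description, and the 2 names differ only in 1 punctuation mark and do not say which is wild type, so every direction below rests on those descriptions. With 1 library in each group there is no replicate check, no p-value is given, and each interval covers read counting only.

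Death receptors are surface proteins of the tumor necrosis factor receptor superfamily that carry an intracellular death domain. When bound by ligand, FAS and the TRAIL receptors TNFRSF10A and TNFRSF10B recruit the adaptor FADD, on which CASP8 and CASP10 cluster and activate each other, whereas TNFRSF1A first builds a survival complex on TRADD and RIPK1. CFLAR encodes cFLIP, a relative of CASP8 without protease activity that competes for FADD. CASP9 is the initiator of the mitochondrial route and is activated on APAF1. Both routes end in the executioner caspases, and in many tumor lines FAS and TNFRSF10B are targets of p53 after DNA damage.

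The libraries held 54878310 reads (DR) and 35294629 reads (WT). The labelled cell type was compared with marker lists. Of the 13 melanocytic genes with counts, 1 (MITF) lay above the median CPM of all tested genes in both libraries, where CPM are read counts scaled to a common library size. The melanocytic list summed to 61.4 CPM in DR and 46.2 CPM in WT, of which MITF gave 34.6 and 34.7 CPM and BCAN 17.0 and 1.78 CPM. TYRP1 had 0 reads in DR and 17 in WT, and SOX10 had 3 and 0. Reads were found in both libraries for PMEL (248 in DR and 82 in WT) and MLANA (123 and 89). By contrast, 13 of 14 plasma cell genes lay above that median in both libraries, with summed levels of 13190 CPM in DR and 11177 CPM in WT, led by IGLL5 (7787 and 4796 CPM) and JCHAIN (2012 and 2917 CPM). The B cell list summed to 98.1 and 63.8 CPM, the T and NK cell list to 14.5 and 17.2, the myeloid list to 78.2 and 77.9, the fibroblast list to 14.2 and 3.21 and the keratinocyte list to 23.0 and 27.4, in DR and WT. These levels go against the labelled melanoma origin, and the libraries are therefore named by their labels only. The part of these marker differences in the results below was not tested, and in bulk RNA fewer cells of a type cannot be told apart from less RNA per cell.

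To show the DNA in front of these genes, the 250 bases before the most upstream start that RefSeq lists were read on the gene's own strand (GRCh38.p14), for 5 of the 8 genes. Motifs were searched on both strands, namely the GC box GGGCGG, the NF-kappaB consensus, the AP-1 site TGANTCA and the TATA element TATAAA, and letters in capitals mark matches to the first 3. FAS and TNFRSF1A are shown as receptors whose levels differed in opposite directions, CFLAR as the gene with the highest level per length and CASP9 as the one with the lowest. The windows are chr10:88990548-88990797 on the plus strand (FAS), chr12:6342077-6342326 on the minus strand (TNFRSF1A), chr2:201118466-201118715 on the plus strand (CFLAR) and chr1:15524791-15525040 on the minus strand (CASP9).
FAS: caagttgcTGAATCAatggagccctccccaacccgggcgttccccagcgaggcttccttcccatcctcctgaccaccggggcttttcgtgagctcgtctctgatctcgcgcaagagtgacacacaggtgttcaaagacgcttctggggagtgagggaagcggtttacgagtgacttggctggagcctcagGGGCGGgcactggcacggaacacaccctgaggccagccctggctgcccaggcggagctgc
TNFRSF1A: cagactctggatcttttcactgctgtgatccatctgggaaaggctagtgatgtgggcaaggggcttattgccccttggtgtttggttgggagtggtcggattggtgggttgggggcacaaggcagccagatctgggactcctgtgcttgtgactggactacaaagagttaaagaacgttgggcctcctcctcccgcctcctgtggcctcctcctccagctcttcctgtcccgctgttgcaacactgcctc
CFLAR: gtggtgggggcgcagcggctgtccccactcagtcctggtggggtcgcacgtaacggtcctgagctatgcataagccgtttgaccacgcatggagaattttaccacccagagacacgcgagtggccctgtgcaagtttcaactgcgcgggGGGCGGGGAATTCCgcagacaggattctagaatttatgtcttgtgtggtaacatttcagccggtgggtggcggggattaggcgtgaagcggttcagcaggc
CASP9: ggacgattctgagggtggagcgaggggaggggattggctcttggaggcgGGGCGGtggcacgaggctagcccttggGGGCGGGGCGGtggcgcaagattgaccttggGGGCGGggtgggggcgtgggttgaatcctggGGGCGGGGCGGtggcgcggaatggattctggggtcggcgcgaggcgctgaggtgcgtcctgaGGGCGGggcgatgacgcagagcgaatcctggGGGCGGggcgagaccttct
The FAS window held 1 GC box and 1 AP-1 match. The CFLAR window held 1 GC box and 1 NF-kappaB match, which overlap each other. The CASP9 window held 8 GC boxes, and that of TNFRSF1A held none of the motifs. The window of CASP8, which is not printed, held 1 GC box. Among all 35116 windows of this length in the table, 42.6% held a GC box, 9.96% an NF-kappaB match, 6.57% an AP-1 match and 10.7% TATAAA. CpG pairs numbered 14 for FAS, 4 for TNFRSF1A, 17 for CFLAR, 6 for CASP8 and 25 for CASP9, against a median of 11 over all windows. RefSeq lists 3 starts for FAS, 4 for CFLAR, 3 for CASP8 and 2 for CASP9, and the read counts are per gene and do not separate them. A match describes the letters and is neither a binding site nor a cause of a difference.

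Of the 8 genes, 4 were higher in DR with counting intervals above 0, and 2 (FAS and TNFRSF10A) were lower with intervals below 0. The remaining 2, CASP8 and CASP9, both lay at -0.01 with intervals that held 0. By 2-fold or more, 0 of 8 differed, against 11.6% of the 16210 genes tested (7.48% higher and 4.16% lower in DR). The log2 fold changes, taken on CPM + 0.5 as DR over WT, ran from -0.34 for FAS to 0.71 for CASP10, with a median of 0.07 beside a median of 0.01 over all genes tested. At 1.5-fold, 1 of 8 genes was past the threshold, against 26.2% of all genes (15.1% higher and 11.2% lower in DR). The 95% counting interval left out 0 for 6 of the 8 genes, against 70.4% of all genes, so that this share was near that of the whole table. All 8 genes passed the filter of 10 reads over both libraries, and the fewest reads of any of them were 497.

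**Figure D1:**
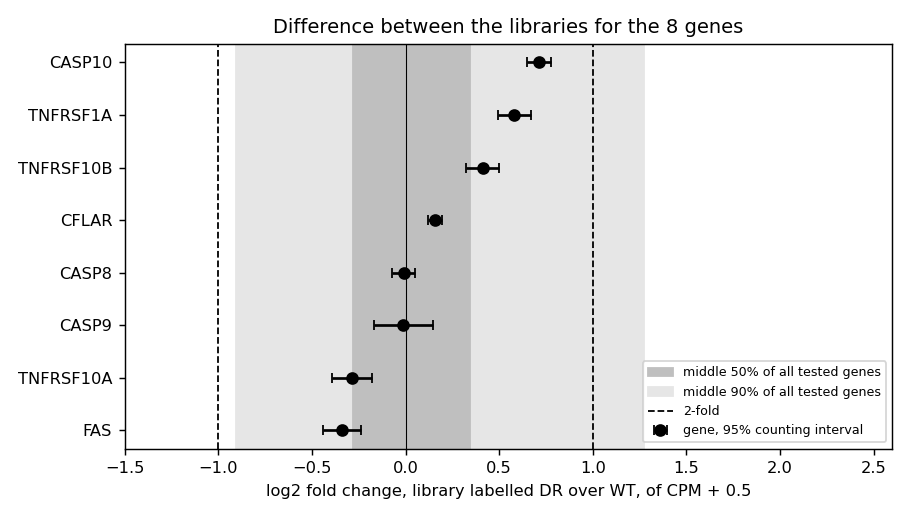
Log2 fold change of CPM + 0.5, DR over WT (x axis), for each of the 8 genes (y axis), with 95% counting intervals. Dark and light bands span the middle 50% and 90% of the 16210 genes tested, and dashed lines mark 2-fold. All 8 points lie inside the dashed lines, from FAS at -0.34 to CASP10 at 0.71.

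Among the receptors, TNFRSF1A (NCBI Gene 7132), which binds tumor necrosis factor, had 3426 reads in DR and 1431 in WT. This gave 61.7 CPM (95% Poisson interval 59.6 to 63.8) against 41.0 CPM (38.9 to 43.2), and a log2 fold change of 0.58 (95% Clopper-Pearson interval 0.49 to 0.67). TNFRSF1A was the receptor with the largest difference toward DR, and 84.8% of the genes tested had a lower or equal fold change.
TNFRSF10B (NCBI Gene 8795), a receptor for the death ligand TRAIL also called DR5, had 3090.48 estimated reads in DR and 1454.17 in WT. Its level was 55.6 CPM (53.7 to 57.6) against 41.7 CPM (39.6 to 43.9), a log2 fold change of 0.41 (0.32 to 0.50). The difference pointed the same way as for TNFRSF1A and was a fold of 1.33.

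The other TRAIL receptor, TNFRSF10A (NCBI Gene 8797, also called DR4), had 1651.07 estimated reads in DR and 1266.84 in WT. It stood at 29.7 CPM (28.3 to 31.2) in DR and 36.3 CPM (34.4 to 38.4) in WT, with a log2 fold change of -0.29 (-0.39 to -0.18). The 2 TRAIL receptors therefore differed in opposite directions between these libraries.
FAS (NCBI Gene 355), the receptor of FAS ligand, had 1662.36 estimated reads in DR and 1325.18 in WT. It stood at 29.9 CPM (28.5 to 31.4) in DR and 38.0 CPM (36.0 to 40.1) in WT, with a log2 fold change of -0.34 (-0.44 to -0.24). This was the lowest value of the 8 genes, and 21.3% of all genes tested had a lower or equal one.

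Levels of different genes were compared as CPM per kb of the deposited gene length unless stated otherwise. Summed over the 4 receptors this level was 68.9 CPM per kb in DR and 63.2 in WT, a log2 ratio of 0.12, so that the makeup differed more than the sum. TNFRSF1A gave 39.6% of the receptor sum in DR and 28.7% in WT. TNFRSF10A gave 24.4% and 32.6%. For FAS the shares were 16.4% and 22.7%, and for TNFRSF10B 19.6% and 16.0%. The receptor with the highest level per length was thus TNFRSF1A in DR (27.3 CPM per kb) and TNFRSF10A in WT (20.6 CPM per kb). The place of TNFRSF10A depended on its short length of 1764 bases. Undivided, it was the lowest receptor in both libraries (29.7 CPM in DR and 36.3 in WT). TNFRSF10B (41.7 CPM) and TNFRSF1A (41.0) were then highest in WT.

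CFLAR (NCBI Gene 8837) had the highest level of the 8 genes, with 14169.05 estimated reads in DR and 7973.29 in WT. This was 255.02 CPM (250.8 to 259.3) against 228.7 CPM (223.7 to 233.8), a log2 fold change of 0.16 (0.12 to 0.20). Although this interval lay above 0, 62.7% of all genes had a lower or equal fold change, so the difference was an ordinary one for these libraries.

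CASP8 (NCBI Gene 841), the initiator caspase of the death receptor complex, had 5291.23 estimated reads in DR and 3343.55 in WT. Its level was 95.2 CPM (92.7 to 97.8) in DR and 95.9 CPM (92.7 to 99.2) in WT, and its log2 fold change was -0.01 (-0.07 to 0.05). The interval held 0, so that the difference was within read counting error.
CASP10 (NCBI Gene 843), the close relative of CASP8 that is also recruited to FADD, had 6686.33 estimated reads in DR and 2553.30 in WT. It stood at 120.3 CPM (117.5 to 123.3) in DR and 73.2 CPM (70.4 to 76.1) in WT, with a log2 fold change of 0.71 (0.65 to 0.78). This 1.64-fold difference was the largest of the 8. Of all genes tested, 88.4% had a lower or equal fold change, and of the genes in its own decile of mean level 96.7% did.

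CASP9 (NCBI Gene 842) had 784.57 estimated reads in DR and 497.08 in WT. At 14.1 CPM (13.2 to 15.2) and 14.3 CPM (13.0 to 15.6), its log2 fold change was -0.01 (-0.17 to 0.15), also within read counting error. Its interval was the widest of the 8 genes because it had the fewest reads.

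In DR the order per length was CFLAR (44.5 CPM per kb), CASP8 (37.8), TNFRSF1A (27.3), CASP10 (24.2), TNFRSF10A (16.8), TNFRSF10B (13.5), FAS (11.3) and CASP9 (5.99), and no neighbours in it had overlapping Poisson intervals. The order in WT was CFLAR (39.9 CPM per kb), CASP8 (38.0), TNFRSF10A (20.6), TNFRSF1A (18.2), CASP10 (14.7), FAS (14.3), TNFRSF10B (10.1) and CASP9 (6.04). There the intervals overlapped for CFLAR and CASP8 and for CASP10 and FAS. Per length, CFLAR and CASP8 thus led and CASP9 came last in both libraries. In each library 7 of the 8 genes lay above the median of all genes tested, which was 6.46 CPM per kb in DR and 6.40 in WT, and CASP9 lay just under it.

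**Figure D2:**
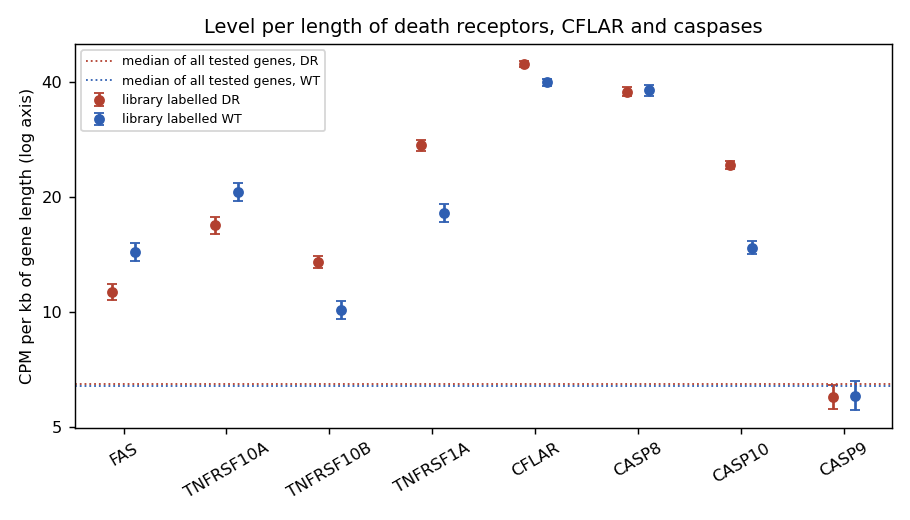
Level per length in CPM per kb (y axis, log scale) of each gene (x axis) in the libraries labelled DR and WT, with 95% Poisson intervals and dotted lines at the median of all genes tested. CFLAR and CASP8 are highest in both libraries, and the receptors split, with TNFRSF1A and TNFRSF10B higher in DR and FAS and TNFRSF10A higher in WT.

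Ratios of 2 genes within a library do not depend on how the libraries were scaled. The pairs were chosen after the values were seen, and the ratios, all per length, are descriptions. CFLAR to CASP8, the inhibitor against the protease, was 1.18 per length in DR (95% Clopper-Pearson interval 1.14 to 1.22) and 1.05 in WT (1.01 to 1.09). CFLAR was thus slightly higher per length in both. Without division by length the gap was wider, at 255.02 CPM against 95.2 in DR and 228.7 against 95.9 in WT. CFLAR to CASP10 was 1.84 (1.79 to 1.89) in DR and 2.71 (2.59 to 2.83) in WT. CASP10 to CASP8 was 0.641 (0.618 to 0.665) in DR and 0.387 (0.368 to 0.408) in WT, 1.66 times as high in DR. Undivided, CASP10 was above CASP8 in DR, at 120.3 CPM against 95.2, and below it in WT, at 73.2 against 95.9.
TNFRSF10B to TNFRSF10A was 0.801 (0.755 to 0.851) in DR and 0.491 (0.455 to 0.530) in WT, so that TNFRSF10A was higher per length in both. Without division by length the order reversed, with TNFRSF10B at 55.6 CPM against 29.7 in DR and 41.7 against 36.3 in WT. TNFRSF10B to FAS was 1.20 (1.13 to 1.27) in DR and 0.706 (0.655 to 0.762) in WT, on different sides of 1. This crossing depended on length. Undivided, TNFRSF10B was above FAS in both, at 55.6 CPM against 29.9 in DR and 41.7 against 38.0 in WT. TNFRSF1A to FAS was 2.42 (2.28 to 2.57) in DR and 1.27 (1.18 to 1.37) in WT. CASP8 to CASP9 was 6.31 (5.85 to 6.81) in DR and 6.30 (5.73 to 6.93) in WT.

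**Figure D3:**
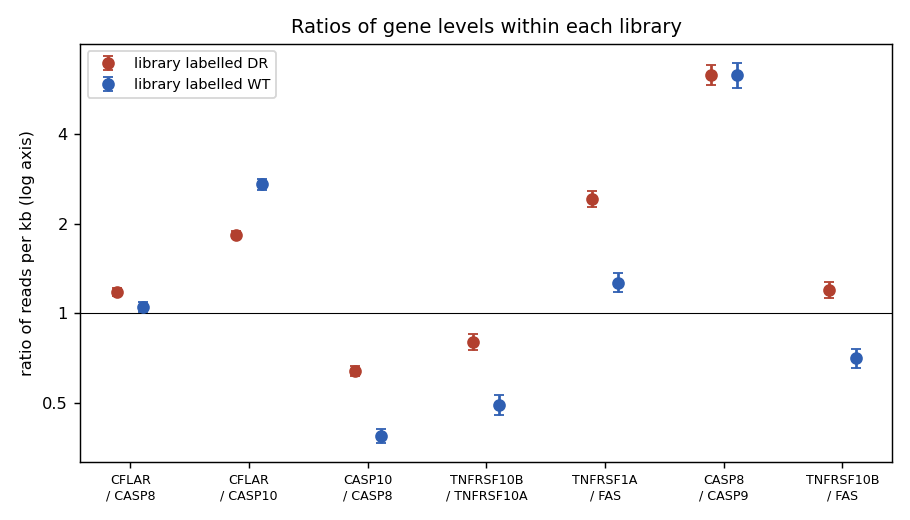
Ratio of reads per kb between 2 genes within each library (y axis, log scale) for 7 gene pairs (x axis), with 95% Clopper-Pearson counting intervals. The intervals of DR and WT overlap for CASP8 to CASP9 and lie apart for the other pairs, with the widest gap for TNFRSF1A to FAS (2.42 in DR and 1.27 in WT).

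CFLAR, CASP10 and CASP8 are neighbours in this order among the protein-coding genes of chromosome 2 (RefSeq, GRCh38.p14). Their log2 fold changes of 0.16, 0.71 and -0.01 show that the middle gene differed most. TNFRSF10A and TNFRSF10B lie in 1 receptor cluster of chromosome 8 with the decoy receptor genes TNFRSF10C and TNFRSF10D. The estimated counts were fractional for 7 of the 8 genes, TNFRSF1A being the exception, as for 9108 of the 18267 genes with counts. How reads shared between related or overlapping genes were divided is not given in the sources used here, so values within the TNFRSF10 cluster are uncertain to that extent. In the RefSeq table, FAS overlaps ACTA2 and FAS-AS1, TNFRSF10B overlaps RHOBTB2 and TNFRSF10B-AS1, and CFLAR overlaps CFLAR-AS1, LOC105373836 and 3 pseudogenes. CASP10 overlaps 3 pseudogenes (MTND5P25, MTND4P23 and MTND4LP13) and TNFRSF10A overlaps RPL23AP55. Without a stated strand setting, reads of such partners cannot be told apart.

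The rest of the pathway was described with 10 lists, of which 79 genes were tested. Of these 79, 6 were at least 2-fold higher and 2 at least 2-fold lower in DR, or 10.1%, against 11.6% of all genes, and their median log2 fold change was 0.06. With a pseudocount of 5 CPM the genes past 2-fold upward were 2 (TNFAIP3 and BIRC3), and TNFSF10, LTA, RIPK3 and DEDD2 were no longer among them. The share lay close to that of the whole table and is no result about the pathway. The genes named below that lay within 2-fold and did not lead their list per length were chosen after their values were seen.
Of 5 ligand genes tested, 2 were at least 2-fold higher in DR and 0 lower, and the median log2 fold change was 0.62. TNFSF10, which encodes TRAIL, had 333 reads in DR and 95 in WT (log2 fold change 1.01, interval 0.72 to 1.30). LTA, lymphotoxin alpha, had 61 and 6 reads (1.25, interval 0.79 to 1.56). LTB, its membrane partner and the ligand gene with the highest level per length, had 1733 and 701 reads (0.62). TNF had 1 read in each library. The ligand RNAs other than LTB were thus scarce, at 5.99 CPM or less.
Among 8 decoy and other receptor genes, 0 were past 2-fold in either direction and the median was 0.05. With a pseudocount of 0.1 CPM 1 of them, TNFRSF10C, was past 2-fold lower. TNFRSF10D, a TRAIL receptor with a truncated death domain, had 819 reads in DR and 307 in WT (0.71). TNFRSF10C, the TRAIL receptor held by a lipid anchor, had 18 and 32 reads (-0.78). TNFRSF1B, the tumor necrosis factor receptor without a death domain, had 6043 and 2802 reads (0.43) and the highest level per length of this list in DR, whereas TNFRSF25 led it in WT.

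Adaptors and kinases of the receptor complexes showed 0 of 10 genes past 2-fold, with a median of 0.12. FADD had 1891 reads in DR and 1121 in WT (0.08), RIPK1 2119 and 1347 (-0.02), and DAXX, highest of this list per length, 5485 and 3159 (0.12). The largest value was that of TRADD, the adaptor of TNFRSF1A, with 3023 and 1178 reads (0.68).
Proteins that add, bind or remove ubiquitin at the TNFRSF1A complex had 1 of 9 genes at least 2-fold higher, 0 lower and a median of 0.22. That gene was TNFAIP3, which encodes the deubiquitinase A20, with 10254 reads in DR and 1279 in WT, or 184.6 and 36.7 CPM (log2 fold change 2.32). TNIP1, a partner of A20 and highest of this list per length in DR, had 8269 and 3335 reads (0.63), and CYLD 7767 and 4284 (0.19).
Of 6 IAP genes, whose products restrain caspases or the receptor complex, 1 was at least 2-fold higher and 0 lower, with a median of -0.11. BIRC3, encoding cIAP2, had 6426 reads in DR and 1823 in WT (1.14). BIRC5, survivin, led the list per length with 7995 and 5282 reads (-0.07), and XIAP, a direct inhibitor of CASP9, had 4558 and 3444 (-0.27).

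The further caspases had 1 of 7 genes past 2-fold, and it was lower in DR. CASP6, an executioner caspase, had 928 reads in DR and 2697 in WT, or 16.7 and 77.4 CPM. Its log2 fold change was -2.18 (interval -2.28 to -2.07). CASP6 had the highest level per length of this list, reached in WT.
Of 9 genes of the apoptosome and mitochondrial release, the route that CASP9 serves, 0 were past 2-fold, and the median of -0.37 was the lowest of the 10 lists. APAF1 had 1214 reads in DR and 1202 in WT (-0.65), CYCS 9913 and 8045 (-0.37) and DIABLO 1793 and 1634 (-0.53). Smaller differences were seen for HTRA2 (-0.04), BAX (-0.09) and ENDOG (0.08), and BAK1 stood at -0.56. AIFM1, highest per length in WT, had 5234 and 4636 (-0.50), and BID, which CASP8 cleaves to link the routes, had 1064 and 618 (0.11).
Caspase substrates had 0 of 10 genes past 2-fold and a median of -0.05, led per length by PARP1 with 63411 and 40855 reads (-0.04). The necroptosis list had 1 of 4 genes higher and 0 lower, with a median of 0.49. RIPK3, the kinase that drives necroptosis when CASP8 is blocked, had 325 reads in DR and 71 in WT (1.32), whereas its substrate MLKL had 1383 and 829 (0.06) and PGAM5, highest per length, 4561 and 3886 (-0.44).
The remaining list of regulators had 1 of 11 genes higher and 1 lower, with a median of -0.06. FAIM, an inhibitor of FAS-induced death, had 197 reads in DR and 845 in WT (-2.61), the lowest value of all 79 genes. DEDD2, a protein with a death effector domain, had 2427 and 735 reads (1.03, interval 0.92 to 1.15). PEA15, which binds FADD and leads the list per length, had 4465 and 3513 (-0.32).

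**Figure D4:**
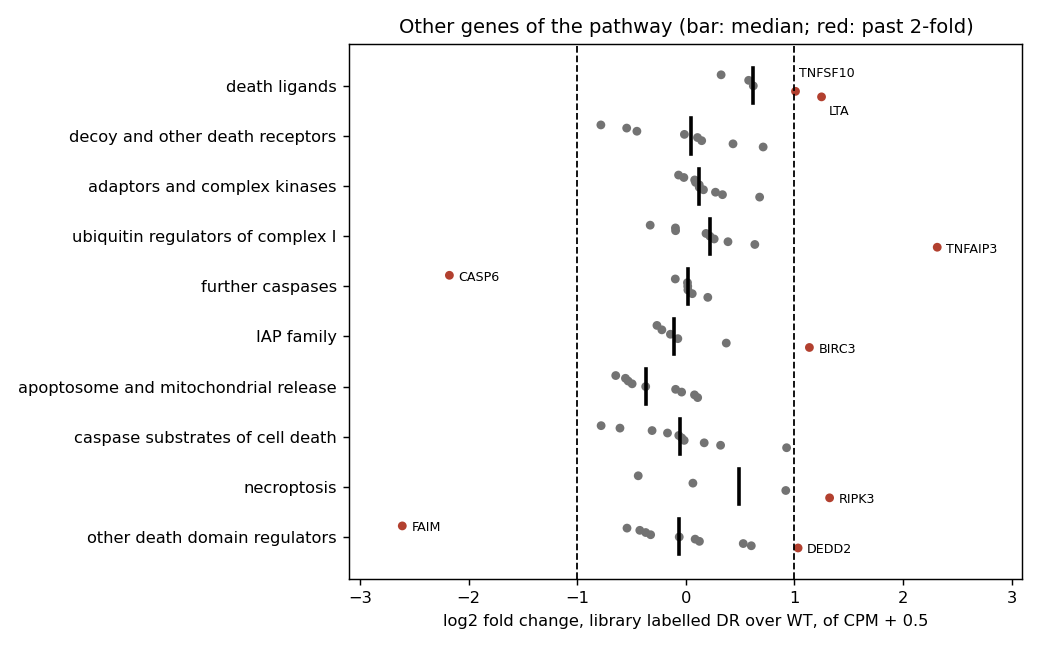
Log2 fold change of CPM + 0.5, DR over WT (x axis), of the 79 genes tested in the 10 lists (y axis), with a bar at each list's median. Red points are the 8 genes past 2-fold, of which CASP6 (-2.18) and FAIM (-2.61) are lower in DR and TNFAIP3 (2.32) is the highest.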

How the data were processed

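The authors deposited 1 table of 18930 genes with estimated counts of each library and a length per gene, without scaling for depth, and 663 genes had no count. The submitters' processing notes name Bowtie 0.12.2 and hg19. The counting tool, annotation and strand setting are not given in the sources used here. The authors' columns comparing the libraries (log2 ratio, p and q values) were not used. Estimated counts were rounded to whole reads and scaled by TMM (factors 1.01 in DR and 0.988 in WT, edgeR 4.0.16, R 4.3.3). Genes under 10 reads over both libraries (2057) were left out, and log2 values were taken of CPM + 0.5. A difference was counted from 2-fold. No test was made, since a single library per group leaves edgeR's quasi-likelihood model no residual spread. Intervals are 95% Clopper-Pearson or exact Poisson intervals (SciPy 1.17.1) and cover counting error only. They treat reads as independent, which reads without molecular identifiers are not, so that even counting error may be understated. The calculation was tested on Poisson counts simulated at the observed means with known folds. These held no spread between samples, so the test checks the arithmetic only. Levels were also divided by length, and 3 reads are worth 0.054 CPM in DR and 0.0861 in WT.

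Named were the 8 genes, list genes past 2-fold with at least 1 CPM in the higher library, the gene leading each list per length, and the most abundant melanocytic and plasma cell markers, and other genes were chosen after their values were seen. The genes and lists were chosen with earlier results of these data known. No search for genes of like pattern was made, because 2 libraries give 1 ratio. FASLG and other list genes without counts, and proteins, were not analysed here. Alternatives were DESeq2 1.42.0 size factors, library totals, pseudocounts of 0.1 and 5 CPM, unrounded counts, no filter, at least 50 reads, a 1.5-fold threshold and levels not divided by length. Some list genes are not reported here.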

Additional observations from a re-analysis of the deposited data

How the results depend on the processing

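No paired analysis was possible because each group holds 1 library, and for the same reason no library could be left out. The log2 fold changes of the 8 genes stayed within their counting intervals under both other scalings, both other pseudocounts and unrounded counts. CASP10 ranged from 0.68 to 0.75, TNFRSF1A from 0.53 to 0.62, TNFRSF10B from 0.38 to 0.45, CFLAR from 0.15 to 0.19, TNFRSF10A from -0.29 to -0.25 and FAS from -0.34 to -0.30. CASP8 (-0.01 to 0.03) and CASP9 (-0.02 to 0.02) crossed 0. At 2-fold 0 genes of the 8 were past the threshold under every one of these settings and both filters, and at 1.5-fold, or 0.585 on the log2 scale, 1 was (CASP10). TNFRSF1A lay close to that limit and also passed it with library totals (0.617) and, barely, with a pseudocount of 0.1 CPM (0.5859), which makes 2. The share of all genes past 1.5-fold was taken only with TMM and 0.5 CPM (26.2%). A pseudocount of 5 CPM lowered the genes past 2-fold from 1886 to 756 (423 higher and 333 lower) and those higher in the 10 lists from 6 to 2, because it draws low genes toward 0. At 0.1 CPM the genes past 2-fold rose to 2633 of all genes tested (1726 higher and 907 lower). The lists then had 7 higher and 3 lower, with TNFSF12 and TNFRSF10C in addition. Without division by length, 10 of 16 ranks among the 8 genes moved, since their lengths differ. The deposited lengths are 1 value per gene, so that orders per length depend on them. The depth limits CASP9 most, with 497 reads in WT.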
